A study of Arabidopsis thaliana with 6 samples.

Results

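The genes described here make myo-inositol and galactinol in Arabidopsis thaliana: the 3 myo-inositol-phosphate synthase genes MIPS1 (AT4G39800), MIPS2 (AT2G22240) and MIPS3 (AT5G10170), and the galactinol synthase genes GOLS1 (AT2G47180), GOLS2 (AT1G56600) and GOLS3 (AT1G09350). They were examined in 4 deposited lists of regions enriched by chromatin immunoprecipitation followed by sequencing (ChIP-seq) for PRR7, a transcriptional repressor that acts in the plant circadian clock. A region belonged to a gene when its summit, the position of the highest signal, lay inside the gene or within 3000 bp of it. By this rule 10 of the 1563 regions in the 4 lists lay at 5 of the 6 genes, and MIPS3 had none. The genes were chosen by the presence of listed regions at some of them and by the fold and rank of those regions, so presence and height are given as a description, with no test.

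All samples were whole seedlings aged 15 days, grown on plates with sucrose under cycles of 12 h light and 12 h dark, and every sample carried the prr7-3 mutation. In line 151 this mutant also carries PRR7 with an HA tag, driven by the PRR7 promoter, and 2 anti-HA immunoprecipitates (IPs) of this line, from experiments 1 and 2, supplied 3 lists. Untagged prr7-3, in which the anti-HA antibody has no tagged PRR7 to bind, supplied 1 list, from experiment 1; its IP of experiment 2 and the input library of each line were not analysed here. HA-PRR7 is represented by a single transgenic line. The labels give no hour of harvest and do not say whether the plants of the experiments were grown separately.

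MIPS converts glucose 6-phosphate into inositol phosphate, the committed step of inositol synthesis, and the free inositol made from it goes into membrane lipids, phytate, cell wall precursors and galactinol. Galactinol synthase joins inositol to galactose from UDP-galactose. Galactinol then donates galactose for raffinose, a sugar that plants accumulate in cold, drought and heat; GOLS1 and GOLS2 are known as drought-induced genes, GOLS1 also as a heat-induced one, and GOLS3 as a cold-induced gene.

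HA-PRR7 experiment 1 held 685 regions, HA-PRR7 experiment 2 held 380 in list KC and 355 in list TL, and prr7-3 experiment 1 held 143. KC and TL come from 1 sample and count as 1 replicate; the letters are not explained in the sources used here. A listed region had an IP signal, the caller's measure of read density at the summit, of at least 10 in every list, so a gene without a region may still carry signal below that level. The control was thin in experiment 2: a single control tag (sequenced fragment end) weighed as much as 11.8 IP tags in KC and 12.3 in TL, against 0.15 in HA-PRR7 experiment 1 and 0.161 in prr7-3. The deposited fold enrichment divides the IP signal by that of the control, taken as 1 when it was smaller. The folds of members in experiment 2 thus rest on 0 to 3 control tags, and the IP signal and tag count are given beside them. The lowest listed folds were 2.51 in HA-PRR7 experiment 1, 2.56 in KC, 2.52 in TL and 2.68 in prr7-3. A gene without a region may therefore also carry a signal of 10 or more whose fold lay below these.

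HA-PRR7 lay at 4 of the 6 genes in both lists of experiment 2, namely MIPS1, MIPS2, GOLS1 and GOLS3, where 2.34% of all 27444 protein-coding genes had a region in both. Taken singly, KC had a region at these 4 members (2.9% of all genes) and TL at 5 members (2.71% of all genes). It lay at GOLS2 in list TL and not in KC (0.936% of genes had a region in exactly 1 of these lists). In experiment 1 MIPS1 alone of the 6 had a region, where 5.01% of all genes had one, and MIPS1 was therefore the 1 member found in all 3 HA-PRR7 lists, as 0.663% of genes were. Untagged prr7-3 had a region at 0 of the 6 genes, where 1.03% of all genes had one. That list comes from experiment 1, where HA-PRR7 also had a region at only 1 of the 6. It therefore gives no background for the member regions of experiment 2. The nearest prr7-3 summit to any member was 172.1 kb away, on the chromosome of GOLS3. By family, 2 of 3 MIPS genes and 2 of 3 GOLS genes had regions in both experiment 2 lists. These percentages give the background share and support nothing about the members, because the rule used the same regions.

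**Figure D1:**
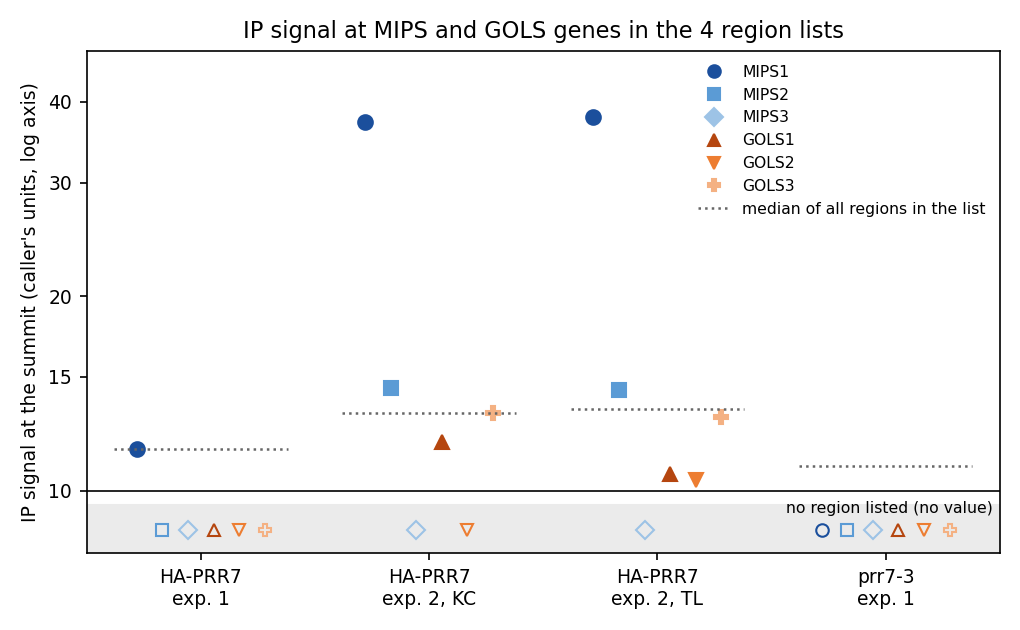
IP signal at the summit (log axis, caller's units) for each of the 6 genes in the 4 lists, with 1 point per region, open symbols for genes with no region and dotted lines at the median of all regions in a list. MIPS1 stands at 37.2 in KC and 37.9 in TL, above the other members, which lie between 10.4 and 14.4. The prr7-3 list, from experiment 1 alone, has no member region.

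MIPS1, which encodes the MIPS enzyme that supplies most inositol in leaves, had the highest HA-PRR7 signal of the family. In experiment 1 its region (chromosome 4, 18472302 to 18472470, TAIR10) had an IP signal of 11.6, with 12 IP tags and 9 control tags and a fold of 11.6. In KC the region (18471975 to 18472581) had an IP signal of 37.2 with 285 IP tags and 2 control tags and a fold of 37.2. In TL the region (18471961 to 18472577) had a signal of 37.9 with 282 IP tags and 3 control tags and a fold of 16.8. By signal MIPS1 was thus near the top of both experiment 2 lists, at rank 12 of 380 in KC and 12 of 355 in TL, and in the middle of experiment 1, at rank 339 of 685, where the median of all regions was also 11.6. By IP tags it ranked 147 in experiment 1, 12 in KC and 10 in TL, and by -log10 q 147, 14 and 13. The experiment 1 tags carry an exact Poisson 95% interval of 6.2 to 21, and the KC tags one of 253 to 320, which cover counting error only.

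The MIPS1 summits of experiments 1 and 2 fell at nearly the same base. They lay 3 bp apart between experiment 1 and either list of experiment 2, and at the same position in KC and TL. Over all nuclear regions that paired 1 to 1, the median distance was 23 bp between experiment 1 and KC (75 pairs, interquartile range 12 to 41.5 bp) and 4 bp between KC and TL (292 pairs). Of the 75 pairs, 22.7% agreed within 10 bp. The whole experiment 1 region at MIPS1, 169 bp wide, lay within the 607 bp region of KC and the 617 bp region of TL.

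Among the 20 nuclear regions of highest signal, 14 in KC and 18 in TL overlapped an experiment 1 region, MIPS1 among them in both lists. The 12 IP tags of MIPS1 in experiment 1 were the fewest of the 14 in KC. The next had 13, 14, 19 and 20, all inside its counting interval of 6.2 to 21, and the highest had 82. By experiment 1 fold, 3 of the 14 were lower than MIPS1 (8.93, 9.69 and 10.1). This comparison was chosen after the values were seen. By rank of fold enrichment MIPS1 stood at 165 in experiment 1, 10 in KC and 79 in TL. Of the 68 nuclear experiment 1 regions that overlapped both other lists, the 3 with ranks most like these lay inside the ferritin gene FER1 (ranks 97, 40 and 56), the B-box gene BBX24, listed as STO (223, 32 and 33), and the MYB factor gene RVE7, listed as EPR1 (106, 30 and 30). The summed differences in log2 rank over the 3 lists were 3.26, 3.37 and 3.62, in the order named. Likeness used ranks of fold, and the TL fold of MIPS1 rests on 3 control tags. By signal MIPS1 ranked 12 in TL, so ranks by signal could name other genes.

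MIPS2, a second MIPS gene with a region, was lower than MIPS1 in both experiment 2 lists and had no region in experiment 1. Its KC region (chromosome 2, 9454047 to 9454469) had an IP signal of 14.4 with 129 IP tags (interval 108 to 153) and 2 control tags. Its TL region (9454055 to 9454464) had a signal of 14.3 with 129 IP tags and 3 control tags. The IP values of the lists were thus nearly equal. The folds were not: 5.24 in KC, where the control signal was 2.75, and 14.3 in TL, where it was listed near 0, so MIPS2 ranked 332 by fold in KC and 123 in TL. The summits, 9 bp apart, lay 86 bp (KC) and 77 bp (TL) outside the span of MIPS2. Both lay inside AT2G22241, a short protein-coding gene that overlaps that end of MIPS2, so the region cannot be assigned to MIPS2 alone.

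MIPS3 had no region in any of the 4 lists. The nearest HA-PRR7 summits were 201.8 kb away in experiment 1 and 86.9 kb away in both KC and TL, and the nearest prr7-3 summit was 209.6 kb away.

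GOLS3, the cold-induced galactinol synthase gene, had regions of middling height in experiment 2 and none in experiment 1. Its IP signal was 13.2 in KC (chromosome 1, 3019502 to 3019728) with 70 IP tags (interval 54.6 to 88.4) and 1 control tag. In TL (3019497 to 3019805) it was 13 with 73 IP tags and 0 control tags. The control signal at the summit was 0 in both lists, so the folds equal the signals. These values stand at the list medians, which were 13.2 in KC and 13.4 in TL. The summits lay 52 bp (KC) and 55 bp (TL) from the gene.

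GOLS1, a heat- and drought-induced galactinol synthase gene, had the narrowest regions of the members within experiment 2. The KC region (chromosome 2, 19371187 to 19371327) spanned 141 bp with an IP signal of 11.9, 44 IP tags (interval 32.0 to 59.1) and 1 control tag. The TL region (19371175 to 19371318) spanned 144 bp with a signal of 10.6, 42 IP tags and 1 control tag. The control signal beneath the summit was 4.31 in KC and 4.11 in TL, which gave folds of 2.76 and 2.57, near the lowest folds of the lists (2.56 and 2.52). By fold GOLS1 ranked 377 of 380 in KC and 354 of 355 in TL, and by IP tags 368 and 351. By signal it stood higher, at 241 in KC and 313 in TL. Its summits, 3 bp apart, lay 777 bp and 774 bp from the gene, farther than those of any other member.

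GOLS2, the other drought-induced member, had a region in TL (chromosome 1, 21206977 to 21207411) and in no other list. Its IP signal of 10.4 was close to the lowest in that list, 10.02, with 92 IP tags (interval 74.2 to 113) over 435 bp, 1 control tag and a fold of 10.4. The nearest KC summit was 416.7 kb away. By IP tags the TL region ranked 122 of 355. KC and TL come from 1 sample, so its presence in 1 list and absence from the other shows no difference in binding. Why KC lists no region at GOLS2 was not tested.

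Within experiment 2 the members fell in the same order of IP signal in both lists: MIPS1, MIPS2, GOLS3, GOLS1 and then, in TL, GOLS2. Both lists come from 1 sample, so the shared order is no independent agreement. MIPS1 stood apart, with a tag interval (253 to 320 in KC, 250 to 317 in TL) above that of every other member. MIPS2 and GOLS3 also had separate tag intervals in both lists, although their signals differed by little and their regions differ in width. Per 100 bp of region, MIPS2, GOLS3 and GOLS1 held 30.5, 30.8 and 31.2 IP tags in KC, while MIPS1 held 47.0. In TL the spread was wider, with 45.7 for MIPS1, 31.5 for MIPS2, 29.2 for GOLS1, 23.6 for GOLS3 and 21.1 for GOLS2 per 100 bp. GOLS2, last by signal in TL, held more tags than GOLS3 or GOLS1 there, over a wider region. The tag intervals of GOLS3 and GOLS1 overlapped in KC and did not in TL. Tag totals depend on region width, so none of these intervals measures how firm the order of signal is. Since experiment 2 has 1 HA-PRR7 sample, no spread between replicates is available for this order.

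**Figure D2:**
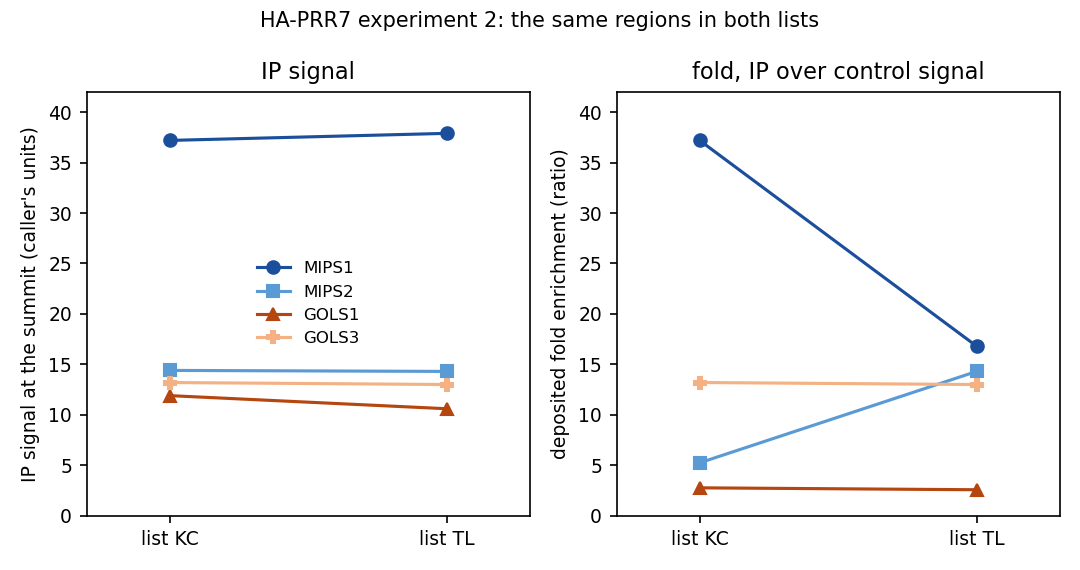
IP signal (left) and deposited fold enrichment (right) of the 4 genes with a region in both experiment 2 lists, with a line joining the 2 lists of the same sample. The signals are nearly level between lists, while the fold of MIPS1 is 37.2 in KC and 16.8 in TL and that of MIPS2 is 5.24 in KC and 14.3 in TL.

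At MIPS1 and MIPS2 the fold differed between the lists more than the signal did, and at GOLS1 and GOLS3 it did not. For MIPS1 the IP signals of KC and TL differed by a factor of 1.02 and the folds by 2.22, and for MIPS2 by 1.01 and 2.72. For GOLS1 the factors were 1.12 and 1.07, and for GOLS3 both were 1.01. Over all 292 nuclear pairs of KC and TL regions the folds differed by more than 2 times in 79 (27.1%), and the IP signals in 0. The change at MIPS1 and MIPS2 moved with the control signal, which at MIPS1 was 0 in KC and 2.26 in TL.

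All 10 member summits lay outside the gene span, within 1000 bp of it. The summits of MIPS1, MIPS2 and GOLS1 lay beyond the end of higher coordinate, and those of GOLS2 and GOLS3 beyond the end of lower coordinate. The gene table gives no strand, so which of these ends is the start of transcription is not stated. Regions of MIPS1, MIPS2 and GOLS3 in experiment 2 reached into the gene, by 74 bp at MIPS1 and 254 bp at MIPS2 in KC, and by 90 bp (KC) and 167 bp (TL) at GOLS3. Of all nuclear summits, 50.0% in KC, 49.9% in TL and 15.6% in HA-PRR7 experiment 1 lay outside every protein-coding gene and within 1000 bp of one, against 0.741% in prr7-3. The MIPS2 summits are not of that kind, because they fall inside AT2G22241.

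**Figure D3:**
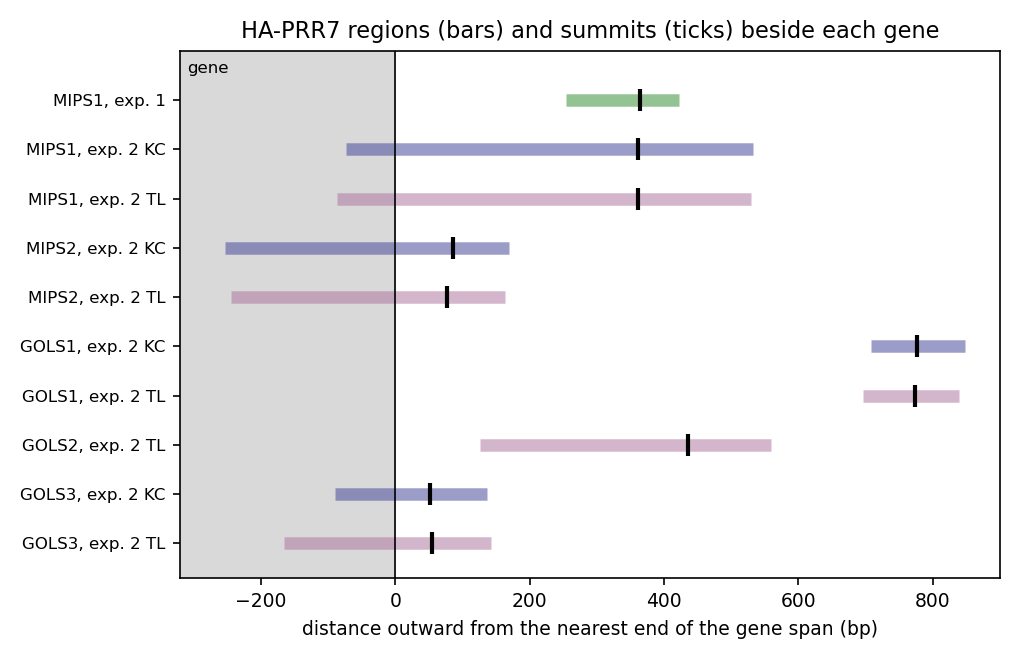
Each bar is a HA-PRR7 region and each tick its summit, plotted by distance (bp) outward from the nearest end of the gene span, with the gene shaded and 1 row per gene and list. Every summit lies outside its gene, between 52 and 777 bp from it, and the summits of 1 gene agree between lists within 9 bp.

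No other region of any list lay near the 3000 bp limit of the rule. The farthest member summit within the limit was that of GOLS1 in KC, at 777 bp, and the nearest summit beyond the limit was 15112 bp from MIPS1, also in KC. Each member region had 1 peak line, at the same position as its summit. Other protein-coding genes within 3000 bp of a member summit were AT4G39810 beside MIPS1 (2068 bp from the experiment 1 summit), AT2G22230 beside MIPS2 (2763 bp in KC), ARF1A1C, a small GTPase gene, beside GOLS1 (2415 bp in KC), and AT1G56590, listed as ZIP4, beside GOLS2 (2245 bp). GOLS3 had a pair of such neighbours, the chloroplast RNA-binding protein gene CRB (1045 bp in KC) and AT1G09360 (2215 bp). Except at MIPS2, the member was the nearest protein-coding gene.

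Members without an experiment 1 region had experiment 2 signals at which most regions were not found again. Of nuclear KC regions with a signal of 13 to 15, where MIPS2 and GOLS3 lay, 11 of 69 (15.9%, exact Clopper-Pearson 95% interval 8.24% to 26.7%) overlapped a region of HA-PRR7 experiment 1. Of those with a signal of 11 to 12, where GOLS1 lay, 10 of 64 did (15.6%, interval 7.76% to 26.9%). Of those above 30, where MIPS1 lay, 16 of 23 did (69.6%, interval 47.1% to 86.8%). In TL the shares were 8.2% for signals of 13 to 15 (MIPS2 and GOLS3), 11.3% for 10 to 11 (GOLS1 and GOLS2) and 81.8% above 30 (MIPS1). Experiment 1 was also sampled more thinly, with 2.31 background IP tags per 300 bp, against 10.1 in KC and 10.2 in TL. The makeup of the lists differed too. Of nuclear summits, 69.5% in HA-PRR7 experiment 1 and 80.0% in prr7-3 lay inside a gene, against 31.7% in KC and 32.4% in TL. The absence of MIPS2, GOLS1, GOLS2 and GOLS3 from experiment 1 therefore does not show that HA-PRR7 was absent there. Depth, list makeup and binding cannot be told apart with 1 sample per experiment.

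**Figure D4:**
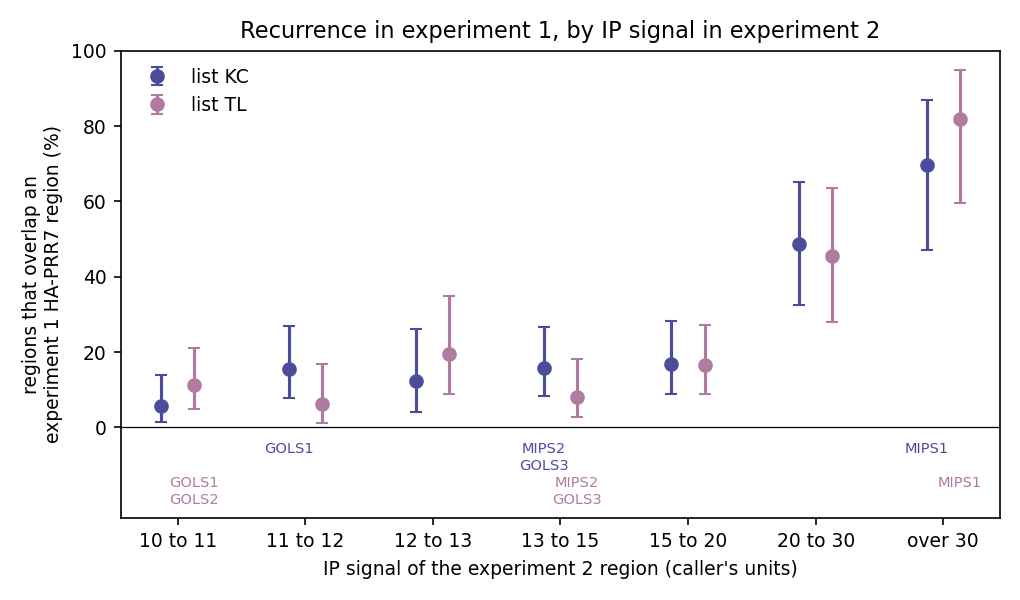
Share of nuclear experiment 2 regions (%) that overlap a HA-PRR7 region of experiment 1, by IP signal in experiment 2 (caller's units), with exact 95% intervals that cover counting error only; the class of each member is written below the axis. The share is 5.63% to 19.5% in the classes below 20 and reaches 69.6% (KC) and 81.8% (TL) above 30, where MIPS1 lies.

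Beyond the 6 members, 41 other genes of inositol and raffinose metabolism were examined, from a list that was not picked for binding. All 41 were found in the gene table, and 3 had a region in any HA-PRR7 list: 2 of 4 inositol transporters and 1 of 5 UDP-galactose epimerases, the enzymes that make UDP-galactose. In experiment 1 this came to 2 of 41 genes, and in both experiment 2 lists to 1 of 41, next to the background shares of 5.01% and 2.34% given above. The share of all genes with a region in any HA-PRR7 list was not counted. It cannot be below the 5.01% of experiment 1 alone. The 3 of 41 and their split by family are therefore a description and no result about these genes. No region lay at the 7 other galactinol synthase genes, GOLS4 to GOLS10, at the 5 raffinose and stachyose synthase genes, the 4 inositol oxygenases, the 3 inositol phosphatases, the 2 phosphatidylinositol synthases, the 7 inositol phosphate kinases, the 3 alpha-galactosidases or the phytate transporter ABCC5. Of the galactinol synthase family, regions were listed at GOLS1, GOLS2 and GOLS3 and at no other gene. This split is a description and no result about the family, because the members were chosen by listed regions at some of them. A single HA-PRR7 list also had a region at only 2.71% (TL) to 5.01% (experiment 1) of all genes. In prr7-3, 0 of the 41 genes had a region, where 1.03% of all genes had one.

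INT1 (AT2G43330), a transporter that carries inositol out of the vacuole, was the 1 gene of this list in both experiment 2 lists. Its IP signal was 17.1 in KC (chromosome 2, 18000500 to 18000856) with 126 IP tags and 0 control tags. The TL region (18000516 to 18000924) had a signal of 15.7 with 127 IP tags and 1 control tag, so INT1 stood above MIPS2 by signal in both lists, with slightly fewer tags than its 129. The folds, 17.1 and 3.43, again differed with the control signal. INT1 also had a region in experiment 1 (18004375 to 18004518), with a signal of 12.3, 10 IP tags and 13 control tags. That region lay 254 bp beyond the opposite end of the gene, and so did not overlap those of experiment 2, whose summits lay 147 bp and 157 bp from the other end. INT4 (AT4G16480), a plasma membrane inositol transporter, had a KC region of signal 11.3 with 102 IP tags, 2381 bp from the gene and inside its neighbour AT4G16490. UGE3 (AT1G63180) had an experiment 1 region inside the gene, with a signal of 13.2, 11 IP tags and 12 control tags.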

How the data were processed

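ChIP-seq region lists of 3 samples were used, 4 lists in all. Per the submitters' processing notes, Bowtie was the aligner and TAIR10 the build. The peak caller, its settings and its control library were not given in the sources read for this work. Each list belongs to 1 sample, and no pooling of replicates is mentioned. Each deposited region gives the IP and control signal at the summit, their ratio as a fold enrichment, whole-number tag counts, a tag enrichment and a -log10 q, as the authors' caller wrote them. No library total is given, so depth was read from the tag enrichment, which equalled the IP tags divided by either the control tags times a constant or an even background in a window of 300 bp or more, whichever was larger (within 1% in 100% of regions).

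Regions were assigned to every protein-coding gene whose span lay within 3000 bp of the summit, with Python 3.11.15, pandas 2.3.3 and scipy 1.17.1. Assignment was checked on simulated regions. Spans come from a RefSeq gene table of TAIR10.1, whose nuclear chromosomes were taken to be those of TAIR10; its coordinates are not printed. It holds no sequence or strand, so the planned motif counts were not run and no sequence is shown. Members and lists were chosen with earlier results of these data known. Named were the members, listed pathway genes with a region, neighbours within 3000 bp of a member summit and the 3 genes most like MIPS1 in rank. Shares by signal class and the look at the 20 highest KC and TL regions were chosen after the values were seen. No test was run: each experiment has 1 HA-PRR7 sample, and the rule used the same values. Tag intervals are exact Poisson (95%), shares exact Clopper-Pearson, and both cover counting error only. Alternatives were another distance, nearest gene, region edge, the better part of each list, either experiment 2 list alone, stricter agreement and each replicate left out.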

Additional observations from a re-analysis of the deposited data

How the results depend on the processing

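Of 40 counts under other settings, 35 stayed within 1.5 times of the value reported, among them all 6 for experiment 1 (MIPS1) and all 6 for prr7-3 (0 genes). Many of these could not have moved, so the 35 are no measure of stability. No summit lay between 777 and 15112 bp from a member, so a limit of 1000 or 5000 bp left every member count unchanged. The prr7-3 counts were fixed at 0, since its nearest summit was 172.1 kb from any member. With regions of at least the median fold, 2 members (MIPS1 and GOLS3) had regions in both experiment 2 lists, and with those of at least the median -log10 q also 2 (MIPS1 and MIPS2), fewer regions entering by construction. Taking only the nearest protein-coding gene left 3, without MIPS2. Members found in every HA-PRR7 list used numbered 1 to 4 with each HA-PRR7 replicate left out: 4 without replicate 1 and 1, MIPS1, without replicate 2. Other pathway genes in both lists were 0 at the median fold, since INT1 fell below it in TL, and 2 (INT1 and INT4) with list KC alone.

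The deposited tag enrichment, taken over the region and not at the summit, moved 7 of 10 member values by over 1.5 times. For MIPS1 it was 5.2 in experiment 1, 12.1 in KC and 7.66 in TL, for MIPS2 3.5 in TL, for GOLS2 6.27 in TL, and for GOLS3 5.93 in KC and 7.0 in TL. Of 20 ranks, 8 moved. By IP tags and by -log10 q MIPS1 ranked 10 and 13 in TL, MIPS2 67 and 72 in KC and 60 and 65 in TL, and GOLS2 122 and 176 in TL. All were higher in the list than by fold. These regions were 617 bp (MIPS1), 423 and 410 bp (MIPS2 in KC and TL) and 435 bp (GOLS2) wide. The median widths were 267 bp in KC and 269 bp in TL. Why the ranks differ was not tested. No paired analysis was possible because the values come from no test, and untagged prr7-3 contributed a list from experiment 1 alone. MIPS1 in experiment 1 rests on 12 IP tags, and experiment 2 folds on at most 3 control tags.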
